A study of Mus musculus with 4 samples.

Results

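DNA replication licensing and E2F genes were followed across 4 RNA sequencing libraries of sorted mouse thymocytes. The set was a written list of 48 genes out of the 35275 gene IDs in the count table, and its members were taken by name. It holds the genes that license and fire replication origins, the working parts of the replication fork, the enzymes that supply nucleotides, the E2F transcription factors and the factors that copy chromatin behind the fork. All 48 symbols were matched to 1 gene ID each, and 47 reached 2 CPM (counts scaled by library size with TMM factors) in at least 1 library, the level called measured here. The exception was Fen1, the flap endonuclease that trims Okazaki fragments, with 3, 2, 1 and 9 counts. Its low count comes with a gene model that shares 84.2% of its exon bases with genes on the opposite strand, and the strand setting of the counting is not given in the sources used here, so no level of Fen1 is reported.

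The thymocytes came from C57BL/6 mice aged 6 to 8 weeks and were sorted on surface TCRβ and CD69. Group 2 had intermediate TCRβ and high CD69, and group 3 had high TCRβ and high CD69. The mice called WT are Uba3F/F in the series design and wild type in the genotype label, and those called KO are Uba3ΔT and Uba3-/-. All mice were untreated. The Cre line behind the deletion, and whether a library held 1 mouse or a pool, are not given in the sources used here. Each combination of genotype and sorted group was 1 library, so the values below have no replicate within a group. Values in all libraries are given with both WT libraries first, then both libraries labelled KO, and group 2 before group 3 within each genotype, unless they are named otherwise.

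Total counts per library ran from 8043077 to 10299863. Genes with at least 1 count numbered 23325 in WT group 3 and 23925 in KO group 2, against 20440 in WT group 2 and 20521 in KO group 3, so these 2 pairs of libraries differ in how many rare transcripts they hold. The cell type label puts both WT libraries in group 2 and both KO libraries in group 3, against the titles, which were used. In the titles' order Ccr7, a chemokine receptor gained by maturing thymocytes, read 195, 592, 160 and 599 CPM, high in both libraries titled group 3. Uba3 counts were 453, 356, 647 and 856, higher in the libraries labelled KO, so the label was not borne out at the level of whole-gene counts and these are called the libraries labelled KO. Summed levels of 13 T cell genes lay between 16850 and 19020 CPM in every library. Markers of other cells were low: 8 B cell genes summed to 60.5 to 84.3 CPM and 10 stromal genes to 137 to 155 CPM, with thymic epithelial Foxn1 and Psmb11 at 6 counts or fewer. The 8 erythroid genes summed to 413 to 598 CPM and the 8 natural killer genes to 138 to 183 CPM. The 12 myeloid genes summed to 58.6, 61.2, 86.4 and 130.6 CPM, and the neutrophil gene Ngp read 2, 6, 2 and 204 counts.

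Before a cell divides, the origin recognition complex with Cdc6 and Cdt1 loads the Mcm2 to Mcm7 helicase onto DNA, a step called licensing, and geminin (Gmnn) holds Cdt1 back once replication has begun. Cdc45 and the GINS complex turn the loaded helicase on, and the fork then needs polymerases, a sliding clamp, a clamp loader and deoxynucleotides. Many of these genes are transcribed under E2F factors, which the RB family restrains until late G1. The product of Uba3 charges NEDD8, a small modifier without which cullin ubiquitin ligases do not work, and such ligases remove the Cdt1 protein during S phase. The libraries measure the Cdt1 transcript and not the protein. In the thymus most division takes place in early thymocytes and in blasts just after β-selection, and cells under positive selection, which carry CD69, divide little.

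Differences by genotype were uneven over the list. Transcripts of 2 E2F factors, 3 nucleotide supply enzymes and the catalytic subunit of polymerase alpha fell in the libraries labelled KO, while Cdt1 rose and the Mcm2 to Mcm7 helicase genes mostly stayed close to their WT levels. In edgeR's quasi-likelihood test, with Benjamini-Hochberg adjustment over 12490 genes, 6 of 47 measured members were lower, where 1.81% of all genes were, and 1 was higher, where 2.94% were. In bulk samples such as these, fewer dividing cells and less of a transcript per cell cannot be told apart. The median fitted log2 fold was -0.21 over the members and 0.00 over all measured genes. At an unadjusted p under 0.05 in edgeR, 14 members were lower and 1 was higher, beside 763 and 896 of all 12490 genes. The model had 1 residual degree of freedom and took its spread from all genes. Its error is the part of the genotype effect that differs between the sorted groups. With 1 library per group, the p-values hold no spread between mice or libraries of the same group. DESeq2 with the same model called 2 of the 6 lower members, E2f2 and Rrm2, and no higher member. It gave 11037 genes an adjusted p, and called 54 of them lower and 125 higher. At an unadjusted p under 0.05 DESeq2 had 9 members lower and 1 higher, beside 309 and 496 of all genes.

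Each sorted group on its own is 1 library against 1, given as a fold with an exact 95% interval for counting error only. A member was counted as shifted when it was at least 25% higher or 20% lower, the same fold in either direction, with an interval that excluded 1. In group 2, 16 members were lower and 2 were higher, beside 16.5% and 18.8% of all measured genes, and the median log2 fold was -0.23 against 0.00. In group 3, 16 were lower and 2 higher, beside 17.0% and 14.4%, with a median of -0.19 against -0.01. Both sorted groups together held 7 members lower each time (Gins1, Rfc2, Rfc4, Pola1, Rrm2, E2f2 and E2f8; 4.98% of all genes) and 1 higher each time (Cdt1; 5.01%). Log2 folds were below 0 in both sorted groups for 25 of 47 members, and for 28.31% of all measured genes. Past 2-fold there were 0 members in group 2, where 2.44% of all genes were lower and 6.45% higher. Among genes with 10 CPM in at least 1 library, as 46 members had, these shares were 1.13% and 1.93%. In group 3, E2f2 and Chaf1a were lower past 2-fold, beside 5.6% of all genes and 1.03% of genes with 10 CPM.

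**Figure D1:**
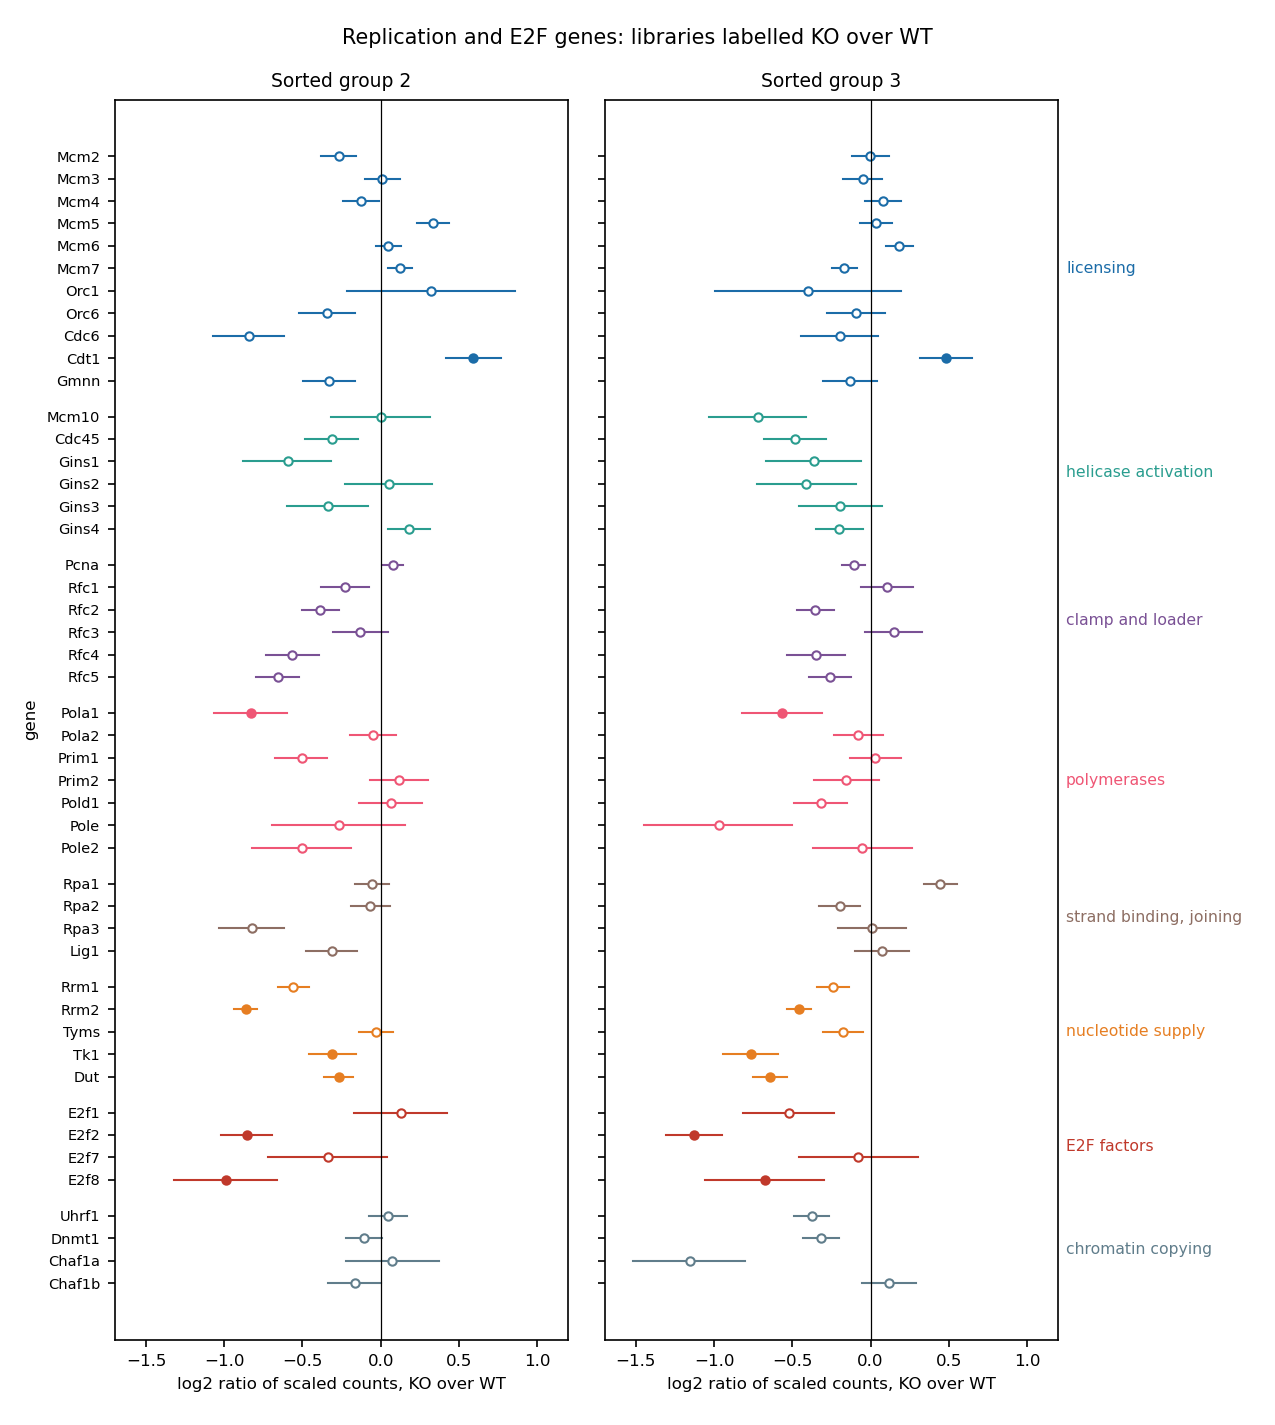
Log2 ratio of scaled counts, library labelled KO over WT, for each of the 47 measured members (rows, coloured by role) in sorted group 2 (left) and group 3 (right). Points are ratios of 1 library to 1, lines are exact 95% intervals for counting error, and filled points are the 7 members called by edgeR for genotype; Cdt1 lies right of 0 and E2f2, E2f8, Pola1 and Rrm2 left of 0 in both panels.

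Among the E2F factors, E2f2 showed the largest fitted fall of the list. E2f2 encodes an activator that is expressed in thymocytes and is known to limit T cell proliferation as well as to drive S phase genes. Its gene (ENSMUSG00000018983, mm10 chr4:136172394-136196057) gave 1001, 746, 465 and 398 counts, or 95.4, 91.5, 52.7 and 41.8 CPM. Both WT libraries lay well above both libraries labelled KO, and the 2 pairs did not overlap. For this and the other called members, such a separation adds nothing to the calls that chose them. The ratio of KO to WT was 0.552 (interval 0.494 to 0.617) in group 2 and 0.457 (0.403 to 0.517) in group 3. The fitted log2 fold was -0.99 (SE 0.17; edgeR, adjusted p 8.43e-07), and with DESeq2 the adjusted p was 0.00174. Over all alternatives run the adjusted p ran from 1.49e-07 to 0.566.

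E2f8 encodes an atypical E2F that represses E2F targets late in S phase. E2f8 (ENSMUSG00000046179, chr7:48866429-48881596) read 25.2, 17.3, 12.7 and 10.8 CPM, from 264, 141, 112 and 103 counts. The WT libraries were again the higher ones, although WT group 3 lay nearer to the libraries labelled KO than to WT group 2. The fitted log2 fold was -0.85 (SE 0.27; edgeR, adjusted p 0.0374), and DESeq2 gave an adjusted p of 0.612 and limma-voom 0.0558, within a range of 0.0229 to 1 over all alternatives. Without WT group 2 the fold was -0.56. The related E2f7 was the lowest of the 4 per length, with 14.0, 13.9, 11.1 and 13.1 CPM and log2 folds of -0.32 and -0.08. E2f1, the activator most tied to S phase entry, read 19.0, 27.5, 20.7 and 19.1 CPM, so it was high in WT group 3 alone. The count of E2f2 per count of E2f1, a ratio within a library that needs no scaling and was chosen after the values were seen, fell from 5.03 and 3.33 in WT to 2.54 and 2.19 in KO. Summed over the 4 factors, levels were 153, 150, 97.2 and 84.8 CPM.

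**Figure D2:**
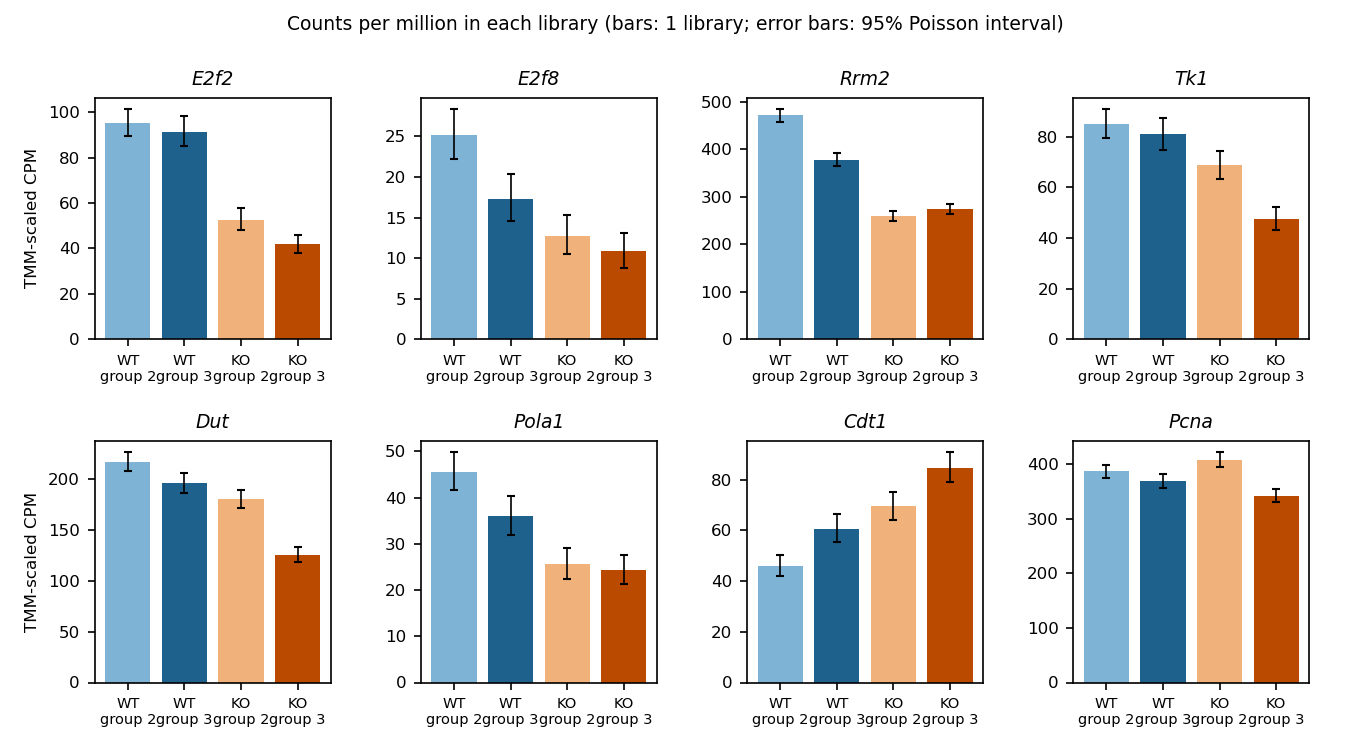
TMM-scaled CPM in each of the 4 libraries for the 7 members called by edgeR for genotype, and for Pcna, which was not called. Bars are single libraries and error bars 95% Poisson intervals; E2f2 stands at 95.4 and 91.5 CPM in WT against 52.7 and 41.8 CPM in KO, Cdt1 runs from 46.0 to 84.7 CPM, and Pcna stays between 342 and 408 CPM.

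The start regions of 5 members are printed because E2f2, Pola1 and Rrm2 fell, Cdt1 rose and Mcm6 did neither. Each is a RefSeq window in GRCm38.p6 of 250 bases before to 50 bases after the transcript start, 5′ to 3′ on the gene's strand. Where a gene had several windows, the one with the most matches to the letters below is printed. E2f2 has another window, chr4:136180532-136180831, which held no match. RefSeq starts need not match the GENCODE gene bounds given with each gene. Capitals mark the E2F-type letters TTTCCCGC, TTTCGCGC, TTTGGCGC or TTTGCCGC on either strand.
E2f2 (chr4:136172024-136172323, plus strand): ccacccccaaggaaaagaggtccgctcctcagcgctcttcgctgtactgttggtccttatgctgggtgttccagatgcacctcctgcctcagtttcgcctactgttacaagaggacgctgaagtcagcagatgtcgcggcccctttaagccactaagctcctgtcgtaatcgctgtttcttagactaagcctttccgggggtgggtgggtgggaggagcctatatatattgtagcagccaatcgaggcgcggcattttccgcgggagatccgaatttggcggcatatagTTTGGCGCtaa
Pola1 (chrX:93632106-93632405, minus strand): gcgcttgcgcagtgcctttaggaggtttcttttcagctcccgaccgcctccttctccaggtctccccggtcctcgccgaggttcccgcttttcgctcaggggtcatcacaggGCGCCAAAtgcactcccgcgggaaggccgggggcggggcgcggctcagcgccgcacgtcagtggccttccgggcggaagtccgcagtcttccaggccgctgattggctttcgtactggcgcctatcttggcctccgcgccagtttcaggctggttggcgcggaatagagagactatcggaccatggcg
Rrm2 (chr12:24708004-24708303, plus strand): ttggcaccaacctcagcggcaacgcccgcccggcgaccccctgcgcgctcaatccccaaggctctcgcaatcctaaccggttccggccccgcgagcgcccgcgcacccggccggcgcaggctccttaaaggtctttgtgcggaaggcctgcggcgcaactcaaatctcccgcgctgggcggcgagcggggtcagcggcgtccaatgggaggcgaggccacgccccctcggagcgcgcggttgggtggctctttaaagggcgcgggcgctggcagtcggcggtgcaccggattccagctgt
Cdt1 (chr8:122567765-122568064, plus strand): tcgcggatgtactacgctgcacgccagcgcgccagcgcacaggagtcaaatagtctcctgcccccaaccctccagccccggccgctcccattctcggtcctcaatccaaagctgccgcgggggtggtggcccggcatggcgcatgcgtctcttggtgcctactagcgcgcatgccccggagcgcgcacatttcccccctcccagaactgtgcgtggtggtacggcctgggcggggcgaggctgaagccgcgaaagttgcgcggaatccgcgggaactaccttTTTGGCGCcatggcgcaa
Mcm6 (chr1:128359656-128359955, minus strand): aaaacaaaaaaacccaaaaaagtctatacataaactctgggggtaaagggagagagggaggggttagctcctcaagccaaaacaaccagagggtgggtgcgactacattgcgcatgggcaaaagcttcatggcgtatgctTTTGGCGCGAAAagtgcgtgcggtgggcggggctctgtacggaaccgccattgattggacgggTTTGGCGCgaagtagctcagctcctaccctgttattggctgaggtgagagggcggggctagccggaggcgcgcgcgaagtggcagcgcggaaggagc

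The letters occurred once in the printed windows of E2f2 and Cdt1, at 39 and 32 bases after the start, and once in Pola1, at 138 bases before it. Mcm6 held 3 matches, of which 2 overlap by 4 letters in the longer run of capitals, and Rrm2 held none. RefSeq windows were found for 40 members, without Gins1, Gins2, Gins4, Mcm4, Pole, Gmnn, Rfc2 and Prim2. At least 1 match stood in 17 of those 40 genes (42.5%), beside 704 of 27025 genes with a window (2.605%). Of the 6 members that fell, 2 held a match, as did the 1 that rose and 4 of the 5 Mcm2 to Mcm7 genes with a window. So the letters were present in members that fell, rose and did neither. The CHR motif of mitotic genes (TTTGAA or TTCGAA on either strand, counted apart from the E2F set, so that a base may belong to both) stood in 9 of 40 members (22.5%) and in 21.66% of all genes with a window. A match is only a string of letters in this window, and binding was not measured.

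Licensing genes hardly moved as a group, with Cdt1 as the exception in the fit. The 11 genes summed to 1322, 1339, 1334 and 1353 CPM, and their median log2 folds were 0.01 in group 2 and -0.05 in group 3. Cdt1, the loading factor (ENSMUSG00000006585, chr8:122568015-122573554), gave 483, 495, 613 and 807 counts, or 46.0, 60.7, 69.4 and 84.7 CPM. Both libraries labelled KO exceeded both WT libraries, and within each genotype group 3 exceeded group 2. The ratio of KO to WT was 1.51 (interval 1.34 to 1.70) in group 2 and 1.40 (1.2 to 1.6) in group 3. The fitted log2 fold was 0.54 (SE 0.17; edgeR, adjusted p 0.0382). The call was lost with, among others, DESeq2 (adjusted p 0.413), limma-voom (0.0509) and plain library totals (0.0774), within a range of 0.0240 to 1 over all alternatives. Without WT group 2 the fold was 0.35.

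Geminin, the inhibitor of Cdt1, read 71.2, 64.4, 56.5 and 58.8 CPM, lower in both libraries labelled KO but not called (log2 fold -0.23, SE 0.17; edgeR, adjusted p 0.638). Cdt1 counts per Gmnn count were 0.647 in WT group 2, 0.943 in WT group 3, 1.23 in KO group 2 and 1.44 in KO group 3. The highest WT interval ended at 1.07 and the lowest KO interval began at 1.09, so the intervals of the 2 genotypes did not overlap. These intervals hold counting error only, and the 2 WT intervals did not overlap each other either (0.576 to 0.726 and 0.832 to 1.07). This ratio was chosen after its values were seen and is a description of the 4 libraries. Cdc6, which loads the helicase together with Cdt1, went the other way, with 47.7, 33.4, 26.6 and 29.1 CPM. Its fold was clear in group 2 alone (-0.83) and small in group 3 (-0.19), and it missed the threshold (edgeR, adjusted p 0.127).

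The 6 subunits of the Mcm helicase kept close to their WT levels. Their summed level was 1091, 1118, 1127 and 1123 CPM, log2 folds lay between -0.27 and 0.33 in group 2 and between -0.17 and 0.18 in group 3, and no subunit passed the test (adjusted p 0.682 to 0.982, edgeR). Mcm5 in group 2 was the 1 subunit shifted by the rule above, with a ratio of 1.26 (interval 1.17 to 1.35) and 1.03 in group 3. Standard errors of 0.14 to 0.15 leave shifts of that size, and some larger ones, undetectable here. Rrm1, with a fitted log2 fold of -0.40 (SE 0.15), was not called either. Per length, Mcm7 had the highest deposited RPKM (265, 311, 279 and 268) and Mcm4 the lowest mean of the 6 (36.8 RPKM). The lengths the authors used are short for some genes, and per kilobase of merged GENCODE exons the spread was narrower, from 18.9 for Mcm2 to 67.8 for Mcm7. Mcm7 also shares 12.6% of its exon bases with other genes. Of the origin recognition genes, Orc1, the lowest licensing gene, read 5.62, 6.5, 7.02 and 4.94 CPM, and Orc6 was shifted lower in group 2 alone (log2 folds -0.34 and -0.09). Neither passed the test in edgeR or DESeq2.

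Of the 6 genes that activate the loaded helicase, 2 were shifted lower in group 2 and 4 in group 3, where all 6 had log2 folds below 0. All measured genes had 16.5% and 17.0% shifted lower, and the difference between the sorted groups was not tested. None passed the test in edgeR or DESeq2. Gins1, a GINS subunit, was the 1 gene shifted in both groups, with 28.4, 23.8, 18.8 and 18.5 CPM and log2 folds of -0.58 and -0.36 (edgeR, adjusted p 0.325). Gins4, the most abundant of these genes per length, read 86.4, 90.6, 98.0 and 79.0 CPM and had folds of opposite sign in the 2 sorted groups. Gins2, the lowest by deposited RPKM (Mcm10 is lower per merged GENCODE exon length), read 22.3, 22.3, 23.1 and 16.8 CPM, low in KO group 3 alone, and 67.3% of its exon bases are shared with an opposite-strand gene. Cdc45 had log2 folds of -0.31 and -0.48, and Mcm10, which joins the helicase to priming, of -0.00 and -0.70.

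The sliding clamp and its loader parted. Pcna, the clamp and the most abundant member per length, gave 387, 369, 408 and 342 CPM and was shifted in neither group. In the loader, Rfc2 read 141, 151, 108 and 118 CPM, and both of its folds were near -0.37 (-0.38 and -0.35; edgeR, adjusted p 0.180). Rfc4 read 75.3, 62.1, 50.9 and 48.7 CPM, with log2 folds of -0.56 and -0.35 (edgeR, adjusted p 0.122). Both genes were lower in the 2 libraries labelled KO than in either WT library, without passing the test. Rfc5 came nearest to the threshold (log2 fold -0.46, SE 0.16; edgeR, adjusted p 0.0660), with log2 folds of -0.66 and -0.26. Rfc3 was shifted in neither group, nor was Rfc1, the least abundant of these genes per length, with 78.6, 66.0, 67.1 and 70.9 CPM.

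In the polymerases, 1 catalytic subunit fell while its partner did not. Pola1 is the catalytic subunit of the polymerase that starts each new strand (ENSMUSG00000006678, chrX:93304767-93632155). It gave 478, 293, 226 and 231 counts, or 45.5, 35.9, 25.6 and 24.3 CPM. The fitted log2 fold was -0.70 (SE 0.21; edgeR, adjusted p 0.0181; DESeq2, 0.440; range 0.00944 to 0.952 over all alternatives). Pola1 lies on the X chromosome, and Xist was at 3 counts in WT group 2 and 0 in the other libraries. Pola2, the accessory subunit of the same enzyme, read 79.3, 76.2, 76.7 and 72.1 CPM. Pola1 counts per Pola2 count were 0.574 and 0.472 in WT and 0.334 and 0.336 in KO. Prim1, the catalytic primase subunit and the highest of this group per length, read 76.4, 68.4, 53.8 and 69.9 CPM and was low in KO group 2 alone. Pole, the leading-strand polymerase and the lowest per length, read 11.1, 12.8, 9.18 and 6.51 CPM, with a ratio of 0.510 (interval 0.367 to 0.706) in group 3 and 0.830 (0.617 to 1.11) in group 2.

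Single-strand binding and strand joining genes showed no shared direction. Rpa2, the highest of these by deposited RPKM (Rpa3 is higher per merged GENCODE exon length), read 110, 116, 105 and 101 CPM, with both log2 folds within 0.20 of 0. Rpa1, the large subunit of the same trimer, stood at 199 CPM in KO group 3 against 146 to 151 CPM in the other libraries. Rpa3 stood at 55.7 CPM in WT group 2 against 31.5 to 39.8 CPM in the others. So each of these 2 differences rests on 1 library. Lig1, the ligase that joins Okazaki fragments, had log2 folds of -0.31 and 0.07.

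Nucleotide supply was the role in which most genes fell: 3 of 5 passed the test in edgeR, beside 1.81% of all genes called lower. Of these 3, DESeq2 called Rrm2 alone. All 5 had log2 folds below 0 in both sorted groups, beside 28.31% of all measured genes. Among the E2F factors 2 of 4 were called lower in edgeR. Summed levels were 1134 and 964 CPM in WT and 796 and 715 CPM in KO. Rrm2 encodes the small subunit of ribonucleotide reductase, the enzyme that makes deoxynucleotides, and its supply changes over the cell cycle. Rrm2 (ENSMUSG00000020649, chr12:24708241-24714146) gave 4954, 3082, 2291 and 2622 counts, or 472, 378, 259 and 275 CPM. Both WT libraries were above both libraries labelled KO, and the gap was wider in group 2 (ratio 0.550, interval 0.523 to 0.578) than in group 3 (0.728, 0.691 to 0.768), a difference that was not tested. The fitted log2 fold was -0.66 (SE 0.14; edgeR, adjusted p 1.81e-04; DESeq2, 0.00636), with a range of 4.23e-05 to 0.771 over all alternatives. Rrm1, the large subunit and the lowest of the 5 by deposited RPKM, read 216, 185, 146 and 156 CPM and missed the threshold (log2 fold -0.40, SE 0.15; edgeR, adjusted p 0.101).

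The other 2 enzymes that fell act on thymidine and uridine nucleotides. Tk1, thymidine kinase of the salvage route (ENSMUSG00000025574, chr11:117815526-117826092), read 85.2, 80.9, 68.7 and 47.6 CPM. Dut, which clears dUTP (ENSMUSG00000027203, chr2:125247190-125258608), read 217, 196, 180 and 126 CPM. For both genes KO group 3 was the lowest library and KO group 2 lay just under the WT libraries. Tk1 fell by 0.53 on the log2 scale (SE 0.17; edgeR, adjusted p 0.0380) and Dut by 0.45 (SE 0.15; adjusted p 0.0439). With DESeq2 the adjusted p was 0.464 for Tk1 and 0.317 for Dut, within ranges of 0.0191 to 0.934 and 0.0199 to 1 over all alternatives. Both folds rest largely on KO group 3: without it they were -0.27 for Tk1 and -0.20 for Dut, and without KO group 2 they were -0.80 and -0.72. Tyms, the thymidylate synthase, was shifted in neither group, with log2 folds of -0.03 and -0.18.

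**Figure D3:**
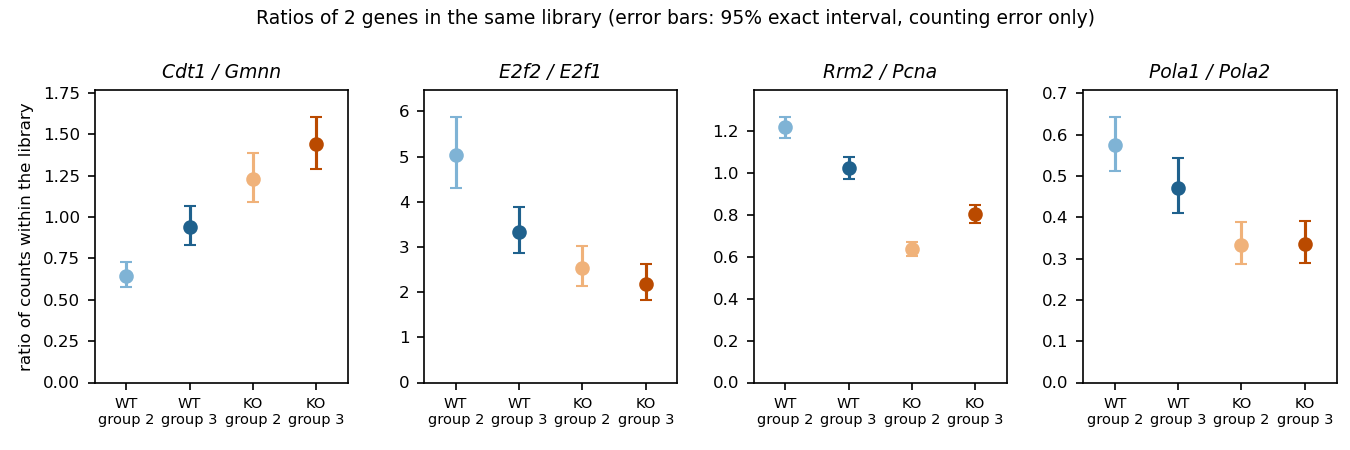
Counts of 1 gene per count of another in the same library (y axes), for Cdt1 over Gmnn, E2f2 over E2f1, Rrm2 over Pcna and Pola1 over Pola2, with exact 95% intervals for counting error. Cdt1 over Gmnn runs from 0.647 to 0.943 in WT and from 1.23 to 1.44 in KO, and Rrm2 over Pcna from 1.02 to 1.22 in WT and from 0.635 to 0.804 in KO. Rrm2 over Rrm1, not drawn, was 2.19 and 2.05 in WT and 1.77 and 1.76 in KO. The pairs were not set in advance.

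Chromatin copying genes had a median log2 fold of -0.03 in group 2 and -0.35 in group 3, a difference that was not tested, and none passed the test in edgeR or DESeq2. Uhrf1, which brings DNA methylation to new strands and was the most abundant of the 4 per length, read 115, 169, 119 and 130 CPM, high in WT group 3 alone. Chaf1a, the large subunit of a histone chaperone and the least abundant, read 19.2, 23.4, 20.3 and 10.5 CPM, with a ratio of 0.448 (interval 0.348 to 0.574) in group 3 and 1.05 in group 2. It shares 52.5% of its exon bases with an opposite-strand gene. Dnmt1, the maintenance methyltransferase, had log2 folds of -0.11 and -0.32, and Chaf1b of -0.17 and 0.12.

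Genes of the same pathway outside the 48 were called lower or not at all. Of 94 such genes, all measured, 5 fell and 0 rose in edgeR, beside 1.81% and 2.94% of all genes. At an unadjusted p under 0.05 in edgeR, 19 were lower and 1 higher, beside 763 and 896 of 12490 genes. DESeq2 called 1 lower and 0 higher, beside 54 and 125 of all genes. Unadjusted, DESeq2 had 9 lower and 1 higher, beside 309 and 496 of all genes. Cdc7, the kinase that fires licensed origins, read 52.7, 47.3, 30.6 and 33.4 CPM (log2 fold -0.65). Ccna2, the S phase cyclin, read 176, 180, 118 and 103 CPM (-0.70), and was the 1 gene also called by DESeq2. Ccnf, a cyclin F-box protein, read 63.6, 73.0, 38.3 and 44.5 CPM (-0.72). Levels of these 3 genes did not overlap between genotypes, which adds nothing to the genotype calls that chose them. Fbxo5, an inhibitor of the anaphase-promoting complex (-0.48), and Pclaf, a Pcna partner (-0.44), also fell. Ccne2, cyclin E2, was lower in group 2 (-1.05) more than in group 3 (-0.36) and missed the threshold (edgeR, adjusted p 0.0605).

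Within the 13 genes for the cullin ligases that act on Cdt1 and for their regulators, Ccnf was the 1 called. The median log2 folds of the 13 were -0.21 in group 2 and 0.05 in group 3. The receptors Dtl and Skp2, named here after the values were seen, were not called: Dtl read 62.1, 39.0, 40.3 and 42 CPM and Skp2 25.8, 21.8, 18.2 and 18.3 CPM. Cdkn1a, a cyclin-dependent kinase inhibitor, stood higher in group 2 (log2 fold 1.09) and level in group 3 (-0.01). The 15 other E2F, RB and DREAM genes had medians of -0.18 and 0.05 with 0 called by edgeR or DESeq2, and Rbl1, an RB relative, was lower in group 2 alone (-0.72 and -0.01).

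Mitosis genes were compared with the list because they mark dividing cells by another stage. Of 30 genes, 23 fell in edgeR, beside 1.81% of all genes, and 8 with DESeq2. All 30 had log2 folds below 0 in both sorted groups, beside 28.31% of all measured genes. Their medians were -0.62 and -0.57, against -0.23 and -0.19 for the 47 members, and they summed to 4646, 4181, 3097 and 2889 CPM. Prc1 fell by 0.83 and Cenpf by 0.80 on the log2 scale. Of 13 G1 cyclins, kinases and inhibitors 1 fell, Cdkn2c (edgeR, adjusted p 0.0453), beside 1.81% of all genes. The medians of that list were 0.05 and -0.15. The Cdkn2c call was lost with DESeq2 (adjusted p 0.556) and limma-voom (0.0647). Genes of immature thymocytes also moved in edgeR: 4 of 13 fell (Ptcra, Rag1, Rag2 and Arpp21), beside 1.81% of all genes. In that list 1 rose (Cd44), beside 2.94% of all genes, and the list summed to 9260, 8259, 8384 and 6644 CPM. Among 11 genes of maturing thymocytes 3 rose in edgeR, Gimap6 and H2-Q7 among them, beside 2.94% of all genes, and 0 fell. That list had median log2 folds of 0.28 and 0.35 and summed to 2324, 3638, 2709 and 4558 CPM. DESeq2 calls for the lists of immature and maturing thymocytes are not given here. The part that these shifts, or the myeloid counts in KO group 3, had in the members' folds was not tested.

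**Figure D4:**
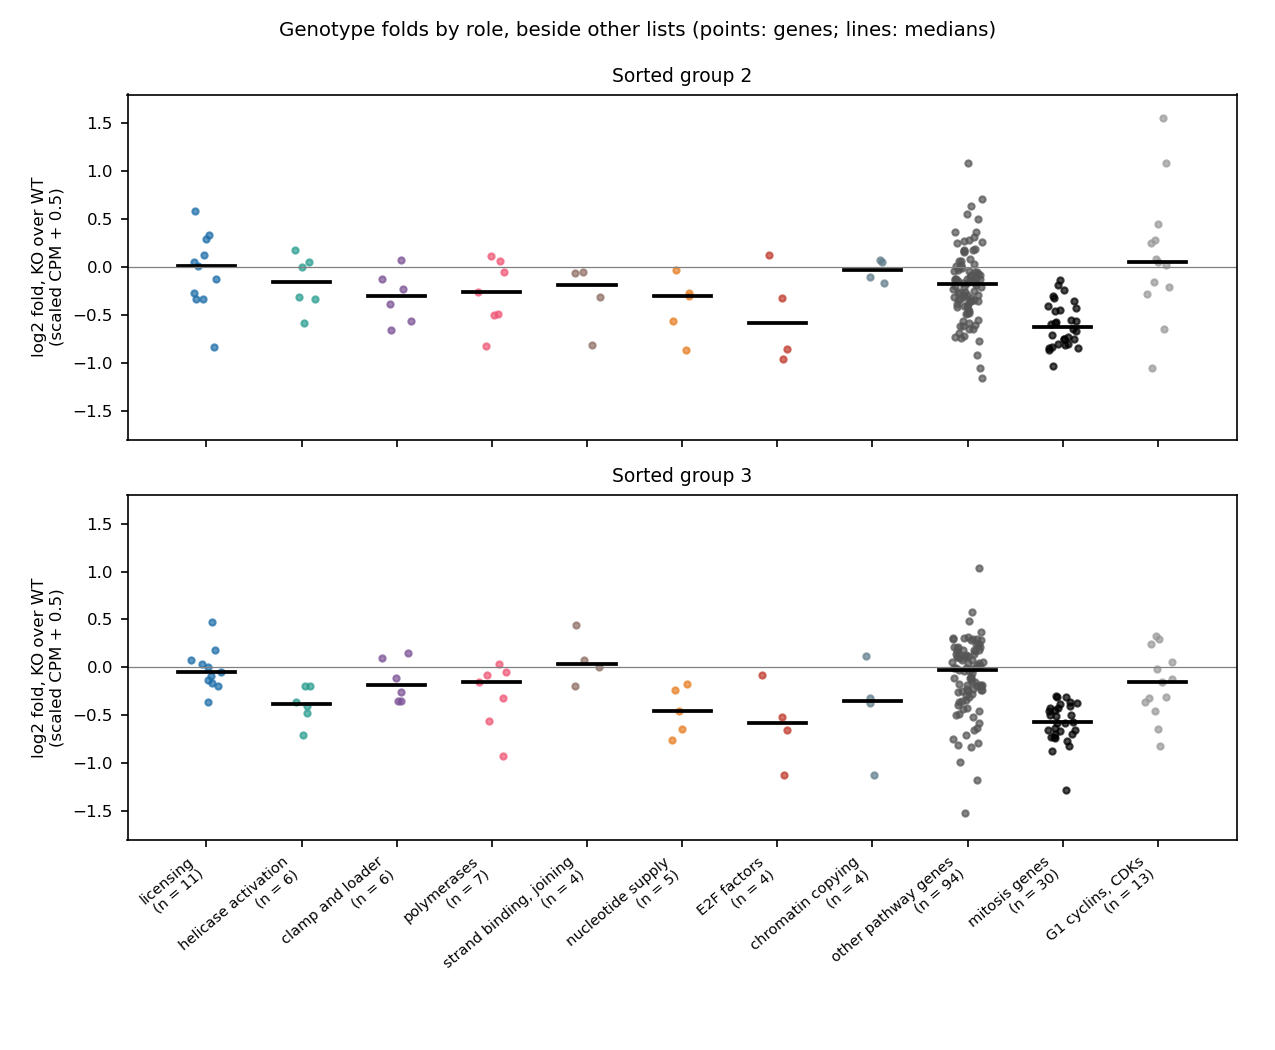
Log2 folds of TMM-scaled CPM plus 0.5, library labelled KO over WT, for the measured members by role and for 3 other lists, in sorted group 2 (top) and group 3 (bottom). Points are genes and lines medians; the licensing genes centre near 0 (0.01 and -0.05), the 5 nucleotide supply enzymes at -0.31 and -0.46, the 4 E2F factors at -0.59 and -0.58, and the 30 mitosis genes at -0.62 and -0.57.

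In the fit, the step from group 2 to group 3 changed few members, as it did few of all genes. In the effect shared by both genotypes 1 of 47 passed in edgeR, Pold1, and 0 were lower, beside 2.17% and 1.14% of all genes. At an unadjusted p under 0.05 in edgeR, 3 were higher and 1 lower, beside 741 and 611 of 12490 genes. DESeq2 called 0 members, beside 100 genes higher and 39 lower. Unadjusted, it had 1 member higher and 0 lower, beside 379 and 237 genes. Pold1, the catalytic subunit of the lagging-strand polymerase (ENSMUSG00000038644, chr7:44532746-44548849), gave 437, 591, 384 and 554 counts, or 41.6, 72.5, 43.5 and 58.2 CPM. Both group 3 libraries exceeded both group 2 libraries, with a fitted log2 fold of 0.61 (SE 0.18; edgeR, adjusted p 0.0217; range 0.0159 to 1 over all alternatives). Its partner Pold2, from the wider pathway list, rose by 0.81. Samhd1, which breaks down deoxynucleotides, rose by 1.51 (adjusted p 1.05e-16 in edgeR and 4.42e-10 in DESeq2). Nasp, a histone chaperone, fell by 0.49 (edgeR, adjusted p 0.0380), a call lost with DESeq2 (adjusted p 0.250).

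Within WT, 5 members were shifted higher in group 3 (Cdt1, Mcm10, Pold1, E2f1 and Uhrf1) and 4 lower (Cdc6, Pola1, Rpa3 and E2f8), beside 16.1% and 14.0% of all genes. Within KO, 4 were higher (Prim1, Pold1, Rpa1 and Rpa3) and 7 lower (Cdc45, Gins2, Tyms, Tk1, Dut, E2f2 and Chaf1a), beside 14.2% and 16.8%. Pold1 was higher in both steps. Past 2-fold there were 0 members in either step, where 5.22% of all genes were higher and 1.86% lower in WT, and 1.85% higher and 5.99% lower in KO. Among genes with 10 CPM in at least 1 library, the shares were 1.47% and 0.582% in WT, and 1.18% and 1.01% in KO. Median log2 folds of the members were -0.07 in WT and -0.01 in KO. These steps use the same 4 libraries as the genotype comparison and give no independent evidence on it.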

How the data were processed

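RNA was sequenced from 4 sorted thymocyte libraries, 1 per group, and groups were taken from the sample titles. The authors deposited read counts per Ensembl gene in 1 table, and RPKM in a file per library. The submitters' processing notes name TopHat2 2.0.12 and mm10. How reads were assigned to genes, with which strand setting, and the source of the gene lengths are not given in the sources used here. The deposited RPKM implied the same whole gene length in every library. Of 35275 IDs, 34490 were matched to symbols in GENCODE M21. Counts were scaled with TMM factors and tested with edgeR 4.0.16 (R 4.3.3; quasi-likelihood F test, model of genotype plus sorted group, genes with 2 CPM in at least 1 library, Benjamini-Hochberg, threshold 0.05). The common dispersion was 0.0288. Folds of 1 library over another are log2 ratios of scaled CPM plus 0.5; intervals of count ratios are exact (Clopper-Pearson, 95%) and cover counting error only. Scripts were tested on simulated data. Alternatives were DESeq2 1.42.0, limma-voom (limma 3.58.1), other scalings, filters and pseudocounts, and libraries left out. Values in all libraries are given for called members, members shifted in both sorted groups and the extremes of each role by RPKM; genes of other lists were to be named where called, plus up to 2 per list, and the text prints part of them and says where it names others. The members and lists were chosen with earlier results of these data known. A result for 1 marker gene is not reported here.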

Additional observations from a re-analysis of the deposited data

Results flagged for a closer look

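Rpa3, the small subunit of the single-strand binding trimer, moved in opposite directions between sorted groups in the 2 genotypes. Its log2 fold of group 3 over group 2 was -0.49 in WT (55.7 to 39.6 CPM) and 0.33 in KO (31.5 to 39.8 CPM). With 1 library per group the difference was not tested.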

How the results depend on the processing

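No paired analysis was possible because each group has 1 library and the labels carry no replicate numbers. The 6 members lower by genotype became 2 with DESeq2, 0 without a filter on low counts and 0 with genotype alone in the model, and the 1 higher member (Cdt1) became 0 with DESeq2, limma-voom, library totals, no filter or genotype alone. Unadjusted, DESeq2 had 9 lower and 1 higher, no filter 10 and 1, genotype alone 12 and 1, limma-voom 14 and 1, and library totals 15 and 1. Over all genes the unadjusted counts, lower and higher, were 309 and 496 with DESeq2 and 585 and 727 without a filter. They were 530 and 613 with genotype alone, 659 and 830 with limma-voom, and 993 and 727 with library totals. With a library left out only genotype alone could be modelled, with 1 library in 1 genotype, and most calls of members were lost. The log2 fold of E2f2 then ran from -1.16 (without KO group 2) to -0.83 (without KO group 3). That of Rrm2 ran from -0.82 (without WT group 3) to -0.50 (without WT group 2). That of Cdt1 ran from 0.35 (without WT group 2) to 0.75 (without WT group 3). Pold1, the 1 member higher with sorted group, became 0 with DESeq2, no filter and sorted group alone. Unadjusted, each of these had 1 member higher and 0 lower. Over all genes the unadjusted counts, higher and lower, were 379 and 237 with DESeq2, 605 and 425 without a filter and 459 and 323 with sorted group alone. With a library left out the Pold1 call was lost, and its log2 fold ran from 0.45 (without WT group 3) to 0.77 (without KO group 3). Library totals, under which the median of all genes was -0.044, left 1 member shifted higher in group 2 (main 2) and put 1 lower past 2-fold (main 0). Without a filter, Fen1 gave 1 member higher past 2-fold from group 2 to group 3 in KO (main 0). Per merged GENCODE exon length, 5 of the 6 Mcm levels moved. The other alternatives kept the counts of members within 1.5 times.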
